A study of Mus musculus with 9 samples.

Results

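The genes described here are 47 genes of the cell cycle and of DNA replication, chosen by name and found by their symbols in an RNA-seq table of mouse liver. All 47 were among the 36119 genes of the table, and all 47 passed the filter on low counts that left 18895 genes to be tested. They fall into 22 genes of the G1/S transition and of DNA replication and 25 genes of the G2/M transition and of mitosis. The livers came from 9 male C57BL/6J wild-type mice, and 1 poly(A)-selected, strand-marked library was made from each. In the ZnPP+OA group, 3 mice received protoporphyrin IX zinc (ZnPP), an inhibitor of heme oxygenase 1 (HO-1), by intraperitoneal injection at 20 mg/kg, and 2 h later oleanolic acid (OA) by gavage. In the OA group, 3 mice received OA, a triterpenoid that causes cholestatic liver injury, and in the Cont group 3 mice received corn oil, with saline in place of ZnPP where none was injected. Sample titles give 295.5 mg/kg of OA, whereas the treatment protocol gives 295.92 mg/kg. Treatment ran for 4 consecutive days in young mice of the same age range, and all were fasted before the tissue was taken. No group received ZnPP alone, so an effect of ZnPP itself and a change in the response to OA cannot be told apart. The comparison of OA with Cont asks what OA treatment did to these genes. That of ZnPP+OA with OA asks whether they differed when ZnPP was given before OA.

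A resting cell enters the cycle when D-type and E-type cyclins, with their kinases, inactivate the retinoblastoma protein and release E2F factors, which switch on the genes that license and copy DNA. A later wave, driven by the factors MYBL2 and FOXM1 at promoters with a cell cycle homology region (CHR), supplies the kinases, spindle proteins and ubiquitin ligases of mitosis. Most hepatocytes of the adult liver are out of the cycle and can return to it after loss or injury of tissue, and macrophages, endothelium and bile duct cells can divide as well. RNA from whole liver adds all of these cells together, so more cells in cycle and more RNA of these genes in each cell cannot be told apart.

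Levels are given as CPM, counts relative to library sizes scaled by the trimmed mean of M values (TMM). Library totals ranged from 32639438 to 85060187 counts, but genes of mitochondrial DNA and their 7 nuclear copies on chromosome 1 held 74.1% to 84.3% of the counts in ZnPP+OA livers, 17.4% to 47.5% in OA livers and 53.7% to 92.0% in Cont livers. The counts left over numbered 9417867 to 12713311 in ZnPP+OA livers, 31232063 to 70295836 in OA livers and 4946748 to 23122403 in Cont livers, and the fewest were in Cont 2. The 47 genes together held 3540 to 6954 counts in ZnPP+OA libraries, 22736 to 65907 in OA libraries and 2005 to 9205 in Cont libraries, so a level in OA livers rests on more counts. Of the 47 genes, 32 had at least 10 counts in every library, and 7 had no count in Cont 2. Hepatocyte markers were abundant in every library, with a summed level of 17532 to 22926 CPM in ZnPP+OA livers, 13355 to 22675 CPM in OA livers and 19671 to 62507 CPM in Cont livers over 9 genes. Within the table, levels per gene length (FPKM) were highest for Pcna, with a mean rank of 2.11 of 47 over the libraries, Ccnd1 (2.33) and Mcm7 (3.56), and lowest for Cenpf and Cdc6 (43.7 each).

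Most of the 47 genes had higher values in OA livers than in Cont livers and lower values in ZnPP+OA livers than in OA livers, but few passed the test one by one. Their summed level was 164, 125 and 134 CPM in ZnPP+OA livers, 209, 261 and 306 CPM in OA livers and 118, 122 and 131 CPM in Cont livers. The 3 OA livers lay above all others, and ZnPP+OA livers overlapped with Cont livers. As CPM of the counts outside mitochondrial DNA and its copies, a scale with no TMM factor, the 47 genes held 547, 376 and 394 in ZnPP+OA livers, 728, 837 and 938 in OA livers and 258, 405 and 398 in Cont livers. The same order of the groups was seen on this scale.

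**Figure D1:**
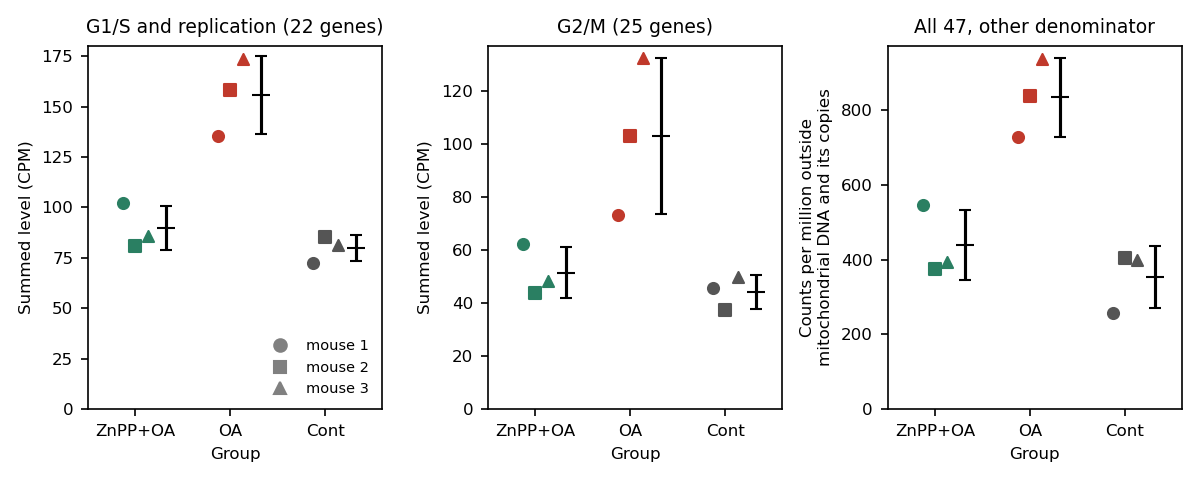
Summed levels of the G1/S and replication genes and of the G2/M genes (CPM), and of all 47 genes as CPM of the counts outside mitochondrial DNA and its copies, in each liver of the ZnPP+OA, OA and Cont groups (points, 1 per mouse, with mean ± SD at the right of each group). The OA livers sit at 136 to 174 CPM for G1/S genes and at 73.4 to 132 CPM for G2/M genes, above every ZnPP+OA and Cont liver.

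In OA against Cont, 5 of the 47 genes were called higher at an adjusted p under 0.05 (edgeR, Benjamini-Hochberg over all genes tested) and 0 lower, where 2.4% of all tested genes were called higher and 2.8% lower. The 5 were Gins2, Rrm1, Tpx2, Ube2c and Cdc20. At an unadjusted p under 0.05, 21 genes were higher (11.6% of all genes) and 0 lower (10.3%). DESeq2 called 12 higher (4.41%) and 0 lower (8.52%). The log2 fold change was positive for 43 of the 47 genes, with a median of 1.22, against 0.09 for all tested genes. For 26 genes every OA liver lay above every Cont liver, which held for 18.5% of all genes, and for 0 genes every OA liver lay below, which held for 10.6%. The calls depended on single libraries. Without OA 1, 3 genes passed (1.98% of all genes), and without Cont 2, 3 passed (1.32%). Without OA 2 or OA 3, 0 passed (0.496% and 0.587%), so calls fell among all genes as well. A setting chosen after seeing the data left out Cont 1 and Cont 2 together, so that Cont 3 alone stood for its group. The median above that of all genes was then 0.97, against 1.13 with every library.

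In ZnPP+OA against OA, 1 of the 47 genes (Mcm6) was called lower and 0 higher, where 1.26% of all tested genes were called lower and 1.6% higher. At an unadjusted p under 0.05, 14 genes were lower (10.2% of all genes) and 0 higher (7.91%). DESeq2 called 6 lower (3.34%) and 0 higher (5.32%). The log2 fold change was negative for 44 of the 47 genes, with a median of −0.97, against −0.07 for all tested genes. For 23 genes every ZnPP+OA liver lay below every OA liver, which held for 19.2% of all genes, and for 0 genes above, which held for 13.6%. The call of Mcm6 was lost without ZnPP+OA 1, 2 or 3, without OA 2 and without OA 3. Lower calls also fell among all genes, to 0.52%, 0.0291%, 0.172%, 0.0644% and 0.109% in that order. Without Cont 1, which is in neither group but enters the shared estimate of the spread, 5 genes passed (2.7% of all genes were then called lower), and 7 passed without Cont 1 and Cont 2 together (3.55%). This comparison and OA against Cont share the OA livers, so a high value in an OA liver raises one and lowers the other. In ZnPP+OA against Cont, edgeR called 0 of the 47 genes, as it called 0% of all genes. There 4 of the 47 genes were higher (3.88% of all genes) and 3 lower (4.28%) at an unadjusted p under 0.05, and DESeq2 called 1 higher (0.286%) and 0 lower (0.455%). The ZnPP+OA livers lay all above the Cont livers for 7 genes (5.74%) and all below for 5 (4.52%), and the median log2 fold change was 0.42, against −0.02 for all genes.

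**Figure D2:**
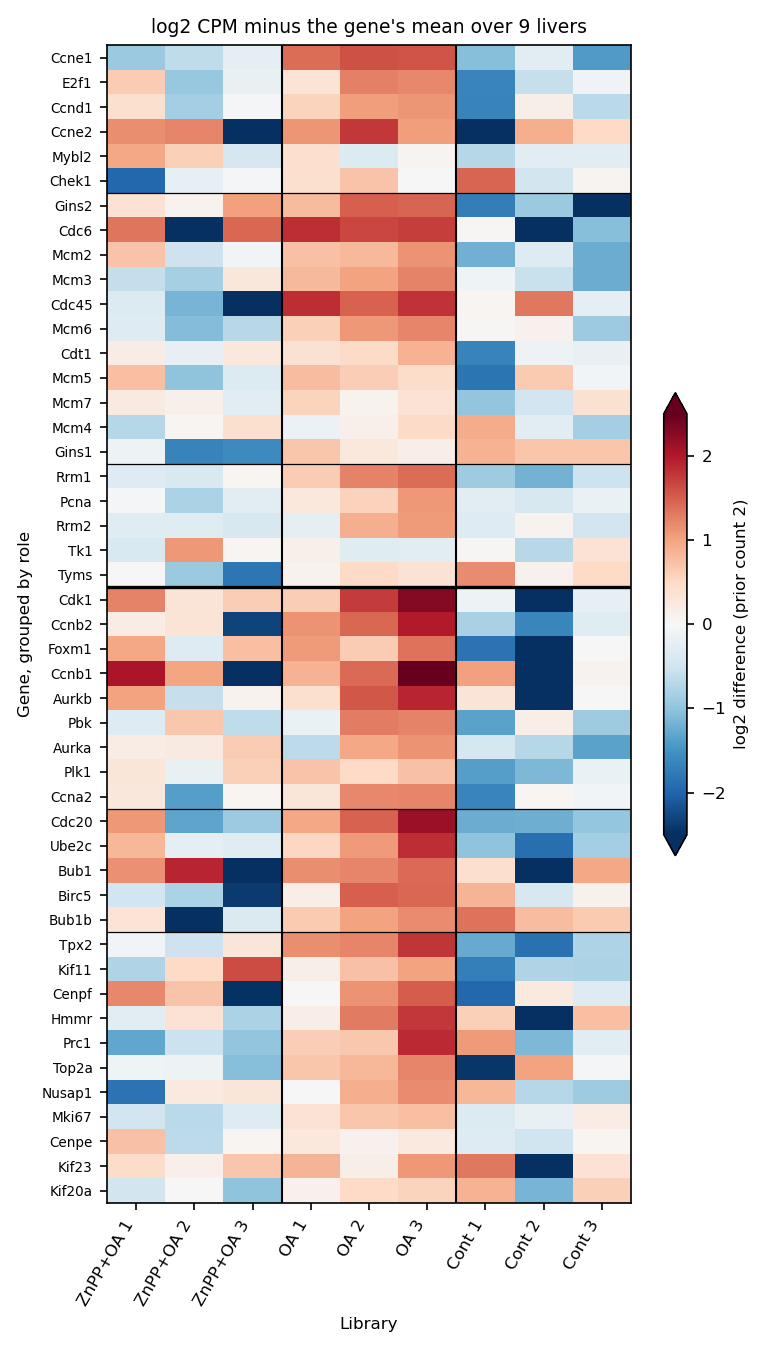
Level of each of the 47 genes in each liver, as log2 CPM (prior count 2) minus the mean of that gene over the 9 livers, in columns for ZnPP+OA, OA and Cont and in rows by role, with the thick line between G1/S and G2/M genes. Red is above and blue below the gene's mean, and most rows are red in the OA columns, with summed levels of 209 to 306 CPM there.

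Promoters of 6 of these genes are shown, since the E2F and CHR words that mark the early and the late wave can be read in them. The windows are those of RefSeq on GRCm38.p6, from 250 bases before to 50 bases after the annotated start, on the strand of the gene from 5′ to 3′. Windows were found for 36 of the 47 genes. The 3 G1/S genes and the 3 G2/M genes are those with the smallest p in OA against Cont among the genes given liver by liver below that hold an E2F or a CHR word. Mcm3 is at chr1:20820263-20820562, minus strand, Mcm6 at chr1:128359656-128359955, minus strand, and Mcm7 at chr5:138171834-138172133, minus strand. Ube2c is at chr2:164769679-164769978, plus strand, Cdc20 at chr4:118437294-118437593, minus strand, and Plk1 at chr7:122159185-122159484, plus strand. Capitals mark E2F words (TTTCCCGC, TTTGGCGC, TTTCGCGC or TTTGCCGC) and CHR words (TTTGAA or TTCGAA) on either strand.
Mcm3: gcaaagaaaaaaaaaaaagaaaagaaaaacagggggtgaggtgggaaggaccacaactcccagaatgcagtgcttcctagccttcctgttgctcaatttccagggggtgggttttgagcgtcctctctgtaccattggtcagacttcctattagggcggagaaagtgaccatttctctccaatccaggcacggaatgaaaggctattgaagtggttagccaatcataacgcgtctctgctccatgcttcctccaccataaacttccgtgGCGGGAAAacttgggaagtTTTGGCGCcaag
Mcm6: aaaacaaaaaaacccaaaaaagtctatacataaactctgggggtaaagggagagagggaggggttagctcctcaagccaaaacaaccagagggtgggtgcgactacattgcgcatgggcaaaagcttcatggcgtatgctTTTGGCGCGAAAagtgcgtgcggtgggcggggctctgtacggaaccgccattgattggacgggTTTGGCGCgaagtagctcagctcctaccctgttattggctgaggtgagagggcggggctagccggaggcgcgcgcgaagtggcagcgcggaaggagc
Mcm7: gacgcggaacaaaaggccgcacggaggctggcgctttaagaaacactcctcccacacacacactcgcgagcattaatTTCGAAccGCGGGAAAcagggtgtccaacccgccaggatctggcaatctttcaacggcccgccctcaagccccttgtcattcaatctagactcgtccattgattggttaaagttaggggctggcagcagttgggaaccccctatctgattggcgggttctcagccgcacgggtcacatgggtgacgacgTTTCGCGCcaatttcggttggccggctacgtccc
Ube2c: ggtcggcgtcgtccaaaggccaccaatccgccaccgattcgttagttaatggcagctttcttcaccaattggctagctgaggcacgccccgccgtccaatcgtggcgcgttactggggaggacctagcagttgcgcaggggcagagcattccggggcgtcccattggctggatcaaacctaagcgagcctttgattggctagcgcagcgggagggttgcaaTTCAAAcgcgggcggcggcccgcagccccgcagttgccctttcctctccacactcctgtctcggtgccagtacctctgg
Cdc20: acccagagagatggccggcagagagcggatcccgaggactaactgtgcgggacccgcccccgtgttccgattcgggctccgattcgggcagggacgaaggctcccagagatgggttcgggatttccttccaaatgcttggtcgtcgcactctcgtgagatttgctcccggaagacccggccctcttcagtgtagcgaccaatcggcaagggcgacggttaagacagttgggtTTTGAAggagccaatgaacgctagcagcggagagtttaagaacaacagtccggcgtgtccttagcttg
Plk1: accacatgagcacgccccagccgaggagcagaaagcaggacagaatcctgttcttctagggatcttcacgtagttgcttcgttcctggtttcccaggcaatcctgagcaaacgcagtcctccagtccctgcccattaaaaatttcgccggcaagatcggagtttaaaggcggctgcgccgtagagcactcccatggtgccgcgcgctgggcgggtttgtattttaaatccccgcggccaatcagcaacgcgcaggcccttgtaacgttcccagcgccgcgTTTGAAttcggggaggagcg

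The E2F words stand in the 3 Mcm promoters and the CHR word in the promoters of Ube2c, Cdc20 and Plk1, and the Mcm7 window shown holds both. Mcm7 has 2 windows, and the one not shown holds CCAAT but no E2F or CHR word. In Cdc20 the word TTTGAA begins 18 bases before the start and CCAAT, the box bound by NF-Y, 53 bases before it. In Plk1 TTTGAA begins 31 bases after the start and CCAAT 14 bases before it. Over all windows, an E2F word was in 6 of 18 windows of G1/S genes (33.3%), in 1 of 20 windows of G2/M genes (5%, that of Cdk1) and in 2.26% of the 32851 windows of all genes. A CHR word was in 3 of 18 windows of G1/S genes (16.7%), 16 of 20 windows of G2/M genes (80%) and 19.2% of all windows. CCAAT was in 10 of 18 (55.6%), 18 of 20 (90%) and 37.4% of windows. In the Mcm6 promoter the E2F words that begin 110 and 106 bases before the start overlap, 1 on each strand. TTCGAA reads the same on both strands and was counted once. These are matches of letters and describe the promoters, not the binding of a factor in these livers.

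**Figure D3:**
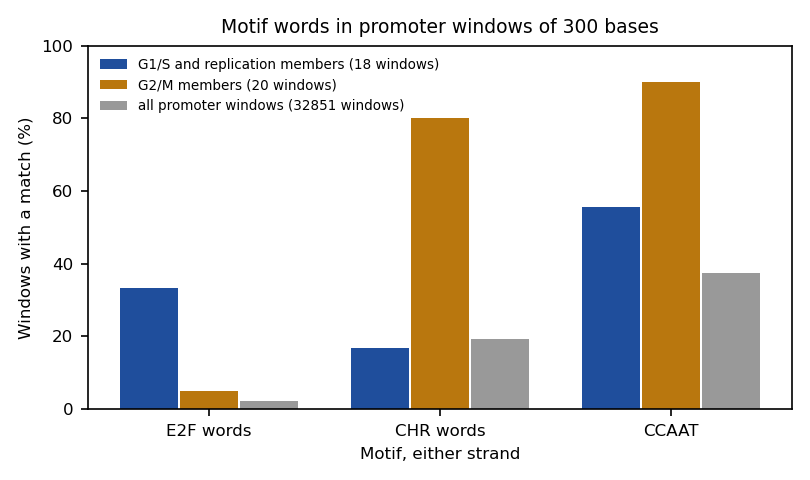
Share of promoter windows of 300 bases with at least 1 E2F word, CHR word or CCAAT on either strand (%), for windows of G1/S and replication genes, of G2/M genes and of all genes. CHR words are in 80% of the G2/M windows and 16.7% of the G1/S windows, against 19.2% of all windows.

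Of the 6 genes of G1/S control, 0 passed the test in either comparison, and 5 had a positive log2 fold change in OA against Cont (median 1.37). Ccnd1, which encodes cyclin D1, the partner of the G1 kinases CDK4 and CDK6, was at 23.8, 9.92 and 17.6 CPM in ZnPP+OA livers, 26.4, 37.2 and 38.4 CPM in OA livers and 5.59, 19.8 and 11.2 CPM in Cont livers. Every OA liver lay above every other liver. Its log2 fold change was 1.49 ± 0.44 in OA against Cont (SE, adjusted p = 0.0743 from edgeR) and −0.99 ± 0.44 in ZnPP+OA against OA (SE, adjusted p = 0.252). E2f1, the activating E2F factor of the G1/S wave, was at 2.15, 0.706 and 1.20 CPM in ZnPP+OA livers, 1.75, 3.35 and 3.19 CPM in OA livers and 0.423, 0.915 and 1.30 CPM in Cont livers. OA livers lay above Cont livers, and OA 1 lay within the range of ZnPP+OA livers. The log2 fold change of E2f1 was 1.64 ± 0.72 in OA against Cont (SE, adjusted p = 0.200).

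Mybl2, the MYB factor that carries the cycle from the early to the late wave, was at 4.37, 3.39 and 1.67 CPM in ZnPP+OA livers, 3.00, 1.76 and 2.36 CPM in OA livers and 1.36, 1.83 and 1.83 CPM in Cont livers. The groups overlapped, and Mybl2 was 1 of the 3 genes with a positive log2 fold change in ZnPP+OA against OA (0.41 ± 0.55, SE, adjusted p = 0.774), the others being Tk1 and Kif11. Chek1, the kinase of the replication checkpoint, was at 0.284, 1.02 and 1.15 CPM in ZnPP+OA livers, 1.56, 1.94 and 1.18 CPM in OA livers and 3.30, 0.854 and 1.24 CPM in Cont livers. Its highest value was in Cont 1, and its log2 fold change in OA against Cont was −0.21 ± 0.79 (SE, adjusted p = 0.913). Ccne1, for cyclin E1, was at 0.734 ± 0.183 CPM in ZnPP+OA, 3.25 ± 0.237 CPM in OA and 0.610 ± 0.271 CPM in Cont livers (mean ± SD, n = 3 mice per group). It had adjusted p = 0.0606 in OA against Cont (log2 fold change 2.44 ± 0.69, SE, edgeR), with no overlap between OA and any other liver. Ccne2, for cyclin E2, averaged 0.550, 0.925 and 0.390 CPM in the ZnPP+OA, OA and Cont groups and had no count in ZnPP+OA 3 and Cont 1.

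The origin licensing and helicase genes place the MCM ring on origins and switch it on, and 10 of these 11 genes had a positive log2 fold change in OA against Cont (median 1.20) and 11 of 11 a negative one in ZnPP+OA against OA (median −0.77). Gins2, a subunit of the GINS part of the active helicase, was at 3.17, 2.61 and 5.00 CPM in ZnPP+OA livers, 4.29, 6.95 and 6.74 CPM in OA livers and 0.726, 1.28 and 0.399 CPM in Cont livers. It rose by 2.95 ± 0.56 (log2, SE) in OA against Cont (adjusted p = 0.0112 from edgeR). Its ZnPP+OA livers also lay above all Cont livers (log2 fold change 2.21 ± 0.55, SE, adjusted p = 0.571), and they overlapped with OA livers. The gene overlaps Gse1 on the other strand, and the sources used here do not say whether counting used the strand. Gins1, of the same complex, averaged 1.12 ± 0.748 CPM in ZnPP+OA, 2.88 ± 0.601 CPM in OA and 3.69 ± 0.262 CPM in Cont livers (mean ± SD, n = 3). Its log2 fold change was −0.36 ± 0.55 in OA against Cont (SE, adjusted p = 0.764).

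Mcm6, a subunit of the MCM ring, was at 5.32, 3.14 and 4.13 CPM in ZnPP+OA livers, 10.1, 14.3 and 15.7 CPM in OA livers and 6.83, 7.20 and 3.54 CPM in Cont livers. It fell by 1.67 (log2) in ZnPP+OA against OA (SE of 0.39, adjusted p = 0.0375 from edgeR) and had 1.20 ± 0.38 in OA against Cont (SE, adjusted p = 0.0895). With relative log expression (RLE) factors in place of TMM in the edgeR fit the adjusted p of the fall was 0.0543. DESeq2 gave it an adjusted p of 0.00545. Mcm3 was at 2.86, 2.44 and 5.28 CPM in ZnPP+OA livers, 7.63, 8.77 and 10.3 CPM in OA livers and 4.02, 2.93 and 1.83 CPM in Cont livers. Every OA liver lay above every other, and the log2 fold changes were 1.61 ± 0.44 in OA against Cont (SE, adjusted p = 0.0554) and −1.34 ± 0.44 in ZnPP+OA against OA (SE, adjusted p = 0.125). Mcm7 was at 13.6, 12.7 and 9.49 CPM in ZnPP+OA livers, 17.2, 12.4 and 15.0 CPM in OA livers and 5.87, 8.36 and 15.1 CPM in Cont livers. Its groups overlapped, and its locus also overlaps Cops6 and Ap4m1 on the other strand. Within the ring the log2 fold changes ranged, from 0.05 for Mcm4 to 1.78 for Mcm2 in OA against Cont, within SEs of 0.36 to 0.60.

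Of the other licensing genes, Cdt1 and Cdc6, which load the ring, had log2 fold changes of 1.12 ± 0.50 and 2.83 ± 1.53 in OA against Cont (SE, adjusted p = 0.212 and 0.309). Cdc6 was low, with no count in ZnPP+OA 2 and Cont 2. Cdc45, which joins the ring to form the active helicase, averaged 0.268 ± 0.26 CPM in ZnPP+OA, 2.26 ± 0.304 CPM in OA and 0.987 ± 0.629 CPM in Cont livers (mean ± SD, n = 3). Its log2 fold change in ZnPP+OA against OA was −3.07 ± 1.13 (SE, adjusted p = 0.167), the most negative of the 47, on a gene with no count in ZnPP+OA 3. Cdc45 overlaps Ufd1 on the other strand, with means over all libraries of 1.17 CPM for Cdc45 and 15.8 CPM for Ufd1. Ccnd1, Ccne2, Ccna2, Kif20a and Prc1 also overlap genes on the other strand, at means of 3.86 to 8.12 CPM.

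The 5 genes of the replication fork and of nucleotide supply differed among themselves. Rrm1, the large subunit of ribonucleotide reductase, was at 4.18, 4.06 and 5.44 CPM in ZnPP+OA livers, 8.17, 12.4 and 13.9 CPM in OA livers and 2.84, 2.32 and 3.65 CPM in Cont livers. The OA livers stood above all others. Rrm1 rose by 1.96 ± 0.37 (log2, SE) in OA against Cont (adjusted p = 0.0114 from edgeR), and had −1.33 ± 0.37 in ZnPP+OA against OA (SE, adjusted p = 0.0744). Rrm2, the small subunit of the same enzyme, was at 2.36, 2.37 and 2.21 CPM in ZnPP+OA livers, 2.48, 5.48 and 6.14 CPM in OA livers and 2.33, 3.11 and 2.1 CPM in Cont livers. OA 1 lay within the range of Cont, and the log2 fold change was 0.91 ± 0.48 (SE, adjusted p = 0.298). Pcna, the sliding clamp of the DNA polymerases, was at 8.06, 4.73 and 6.89 CPM in ZnPP+OA livers, 9.96, 12.3 and 17.5 CPM in OA livers and 6.83, 6.28 and 7.32 CPM in Cont livers. Every OA liver was above every other liver, at a log2 fold change of 0.96 ± 0.34 in OA against Cont (SE, adjusted p = 0.123) and −1.01 ± 0.34 in ZnPP+OA against OA (SE, adjusted p = 0.134).

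Tyms, thymidylate synthase, was at 4.23, 2.19 and 1.18 CPM in ZnPP+OA livers, 4.49, 5.91 and 5.41 CPM in OA livers and 9.56, 4.52 and 5.95 CPM in Cont livers. Its OA and Cont livers overlapped (log2 fold change −0.34 ± 0.48, SE, adjusted p = 0.736), while its ZnPP+OA livers lay below those of both other groups. Tk1, thymidine kinase of the salvage pathway, was at 7.4, 20.3 and 9.93 CPM in ZnPP+OA livers, 10.5, 7.79 and 7.98 CPM in OA livers and 9.74, 5.92 and 12.3 CPM in Cont livers. The groups overlapped, with the highest value in ZnPP+OA 2, and the log2 fold change was 0.52 ± 0.41 in ZnPP+OA against OA (SE, adjusted p = 0.582). On the log2(FPKM + 1) scale that value was −0.94. The median there was −1.27 over genes with FPKM of 1 or more in 3 libraries, and Tk1 lay above it. With no filter the median was −0.145, and Tk1 lay below it. Tk1 also overlaps Afmid and Gm20708 on the other strand.

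All 9 G2/M cyclins, kinases and FOXM1 had positive log2 fold changes in OA against Cont (median 1.82) and negative ones in ZnPP+OA against OA (median −0.93), and 0 passed in either. Cdk1, the kinase that starts mitosis, was at 5.53, 2.89 and 3.58 CPM in ZnPP+OA livers, 3.58, 7.90 and 11.5 CPM in OA livers and 2.12, 0 and 2.00 CPM in Cont livers. All OA and all ZnPP+OA livers lay above all Cont livers, and OA 1 lay within the range of ZnPP+OA. Its log2 fold change in OA against Cont was 2.43 ± 0.85 (SE, adjusted p = 0.120 from edgeR). Ccna2, for cyclin A2, was at 3.76, 1.17 and 3.17 CPM in ZnPP+OA livers, 3.78, 7.12 and 7.16 CPM in OA livers and 0.968, 3.17 and 2.92 CPM in Cont livers. OA 1 was only just above ZnPP+OA 1, and the other OA livers were well above. Plk1, the Polo kinase of mitotic entry and exit, was at 3.33, 2.37 and 4.10 CPM in ZnPP+OA livers, 4.48, 3.85 and 4.52 CPM in OA livers and 1.03, 1.22 and 2.41 CPM in Cont livers. OA livers lay above Cont livers (log2 fold change 1.45 ± 0.50, SE, adjusted p = 0.116), and overlapped with ZnPP+OA livers (−0.39 ± 0.49, adjusted p = 0.759).

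Ccnb1 and Ccnb2, for the B-type cyclins that pair with CDK1, had log2 fold changes of 1.92 ± 1.38 and 2.39 ± 0.79 in OA against Cont (SE, adjusted p = 0.455 and 0.0979). Ccnb1 had no count in ZnPP+OA 3 and Cont 2. Foxm1 averaged 2.37 ± 0.971 CPM in ZnPP+OA, 3.31 ± 0.810 CPM in OA and 0.755 ± 0.735 CPM in Cont livers (mean ± SD, n = 3). Aurka, Aurkb and Pbk, kinases of the spindle and of mitotic chromosomes, had log2 fold changes of 1.48 to 1.82 in OA against Cont and of −1.11 to −0.30 in ZnPP+OA against OA.

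The 5 genes of the spindle checkpoint and of the anaphase-promoting complex held 2 of the 5 calls. Cdc20, the activator of the complex at anaphase, was at 3.10, 0.565 and 0.766 CPM in ZnPP+OA livers, 2.89, 4.10 and 6.48 CPM in OA livers and 0.605, 0.610 and 0.727 CPM in Cont livers. It rose by 2.78 ± 0.74 (log2, SE) in OA against Cont (adjusted p = 0.0473 from edgeR), a call lost without any 1 of the 6 OA and Cont livers, without ZnPP+OA 3 and with RLE factors. ZnPP+OA 1 stood with the OA livers, and the other ZnPP+OA livers stood with Cont. Ube2c, the ubiquitin-conjugating enzyme that works with the complex, was at 4.92, 2.37 and 2.24 CPM in ZnPP+OA livers, 3.94, 5.79 and 9.95 CPM in OA livers and 1.36, 0.732 and 1.53 CPM in Cont livers. It rose by 2.42 ± 0.55 in OA against Cont (SE, adjusted p = 0.0248), a call lost without OA 2, OA 3 or Cont 2, and its ZnPP+OA livers also lay above all Cont livers (1.38 ± 0.54, adjusted p = 0.605). Cdc20 overlaps Elovl1 on the other strand.

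Birc5, or survivin, of the chromosomal passenger complex, was at 2.25, 1.80 and 0.574 CPM in ZnPP+OA livers, 3.52, 8.87 and 8.51 CPM in OA livers and 5.66, 2.38 and 3.39 CPM in Cont livers. Its ZnPP+OA livers lay below all others, and the log2 fold change was −2.18 ± 0.59 in ZnPP+OA against OA (SE, adjusted p = 0.0717 from edgeR), and OA and Cont overlapped (0.87 ± 0.57, adjusted p = 0.407). Bub1 and Bub1b encode proteins of the checkpoint at the kinetochore. Bub1 was at 0.969, 1.66 and 0 CPM in ZnPP+OA livers, 0.974, 1.02 and 1.18 CPM in OA livers and 0.575, 0 and 0.856 CPM in Cont livers. Bub1b was at 1.54, 0 and 0.930 CPM in ZnPP+OA livers, 1.91, 2.45 and 2.77 CPM in OA livers and 3.11, 2.07 and 1.91 CPM in Cont livers. Bub1b had the smallest change of the 25 G2/M genes in OA against Cont (0.01 ± 0.95, SE, adjusted p = 0.998).

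Among the 11 genes of the spindle, the kinetochore and the chromosomes, Tpx2 passed the test in OA against Cont, and 11 of 11 had positive log2 fold changes there (median 0.88). Tpx2, which activates Aurora A on the spindle, was at 1.56, 1.13 and 2.02 CPM in ZnPP+OA livers, 3.66, 3.80 and 5.71 CPM in OA livers and 0.665, 0.427 and 0.941 CPM in Cont livers. The 3 groups did not overlap. Tpx2 rose by 2.66 ± 0.59 (log2, SE) in OA against Cont (adjusted p = 0.0226 from edgeR), a call lost without OA 1, OA 2, OA 3 or Cont 2, and had −1.48 ± 0.56 in ZnPP+OA against OA (SE, adjusted p = 0.181). Mki67, which encodes the proliferation antigen Ki-67, was at 8.87, 7.77 and 9.87 CPM in ZnPP+OA livers, 15.9, 20.1 and 20.9 CPM in OA livers and 9.71, 10.9 and 14.1 CPM in Cont livers. Every OA liver lay above every other, with 0.71 ± 0.29 in OA against Cont (SE, adjusted p = 0.171) and −1.10 ± 0.29 in ZnPP+OA against OA (SE, adjusted p = 0.0657).

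Top2a, the topoisomerase that untangles sister chromatids, was at 3.14, 3.11 and 1.61 CPM in ZnPP+OA livers, 5.5, 6.07 and 7.89 CPM in OA livers and 0.605, 6.77 and 3.29 CPM in Cont livers. OA and Cont overlapped through Cont 2. Cenpe, a kinetochore motor, was at 5.04, 1.91 and 3.12 CPM in ZnPP+OA livers, 3.64, 3.24 and 3.58 CPM in OA livers and 2.39, 2.14 and 3.11 CPM in Cont livers, the narrowest spread being among OA livers. The other 7 genes of this role, Kif11, Kif20a, Kif23, Prc1, Nusap1, Hmmr and Cenpf, had log2 fold changes of 0.06 to 1.73 in OA against Cont and of −2.12 (Prc1, a bundler of the central spindle) to 0.09 (Kif11, a motor that separates the poles) in ZnPP+OA against OA. The lowest adjusted p among these 7 was 0.138, for Prc1 in ZnPP+OA against OA.

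**Figure D4:**
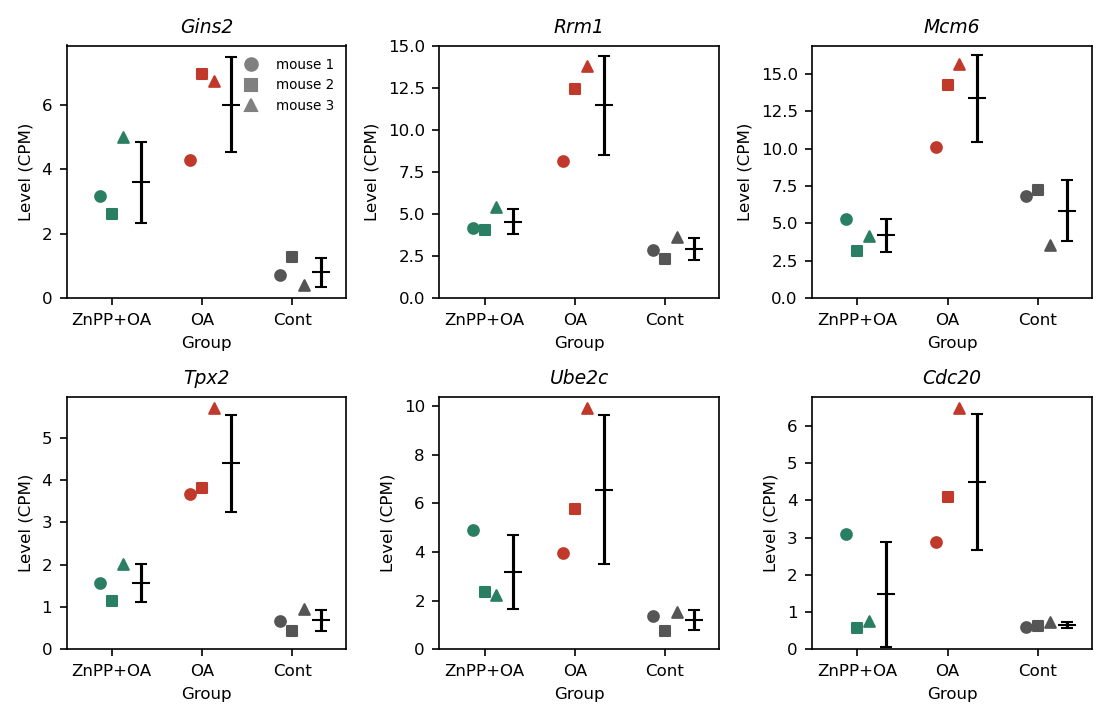
Levels in CPM of the 6 genes that passed the test in OA against Cont (Gins2, Rrm1, Tpx2, Ube2c, Cdc20) or in ZnPP+OA against OA (Mcm6), in each liver of the ZnPP+OA, OA and Cont groups (points, 1 per mouse, with mean ± SD at the right). All OA livers lie above all Cont livers in each panel, and for Mcm6 the ZnPP+OA livers (3.14 to 5.32 CPM) lie below all OA livers (10.1 to 15.7 CPM).

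The G1/S and the G2/M sets were set side by side. In OA against Cont, 2 of 22 G1/S and replication genes were called higher, with a median log2 fold change of 1.16, and 3 of 25 G2/M genes, with a median of 1.45, where 2.4% of all genes were called higher. Every OA liver lay above every Cont liver for 13 genes of each set (18.5% of all genes). In ZnPP+OA against OA the medians were −0.97 for each set, and every ZnPP+OA liver lay below every OA liver for 14 of 22 G1/S genes and 9 of 25 G2/M genes (19.2% of all genes). The 4 genes with a negative log2 fold change in OA against Cont (Chek1, Gins1, Tyms and Tk1) were all of the G1/S set. The difference of the medians, G1/S minus G2/M, was −0.29 in OA against Cont, and 0.34 on the log2(FPKM + 1) scale without a filter. No test was made of the difference between the sets, whose genes are not replicates.

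Liver by liver, the share of the summed level that came from G2/M genes was 37.8%, 35.2% and 36.0% in ZnPP+OA livers, 35.1%, 39.4% and 43.2% in OA livers and 38.6%, 30.4% and 37.8% in Cont livers. The groups overlapped in this share, and the highest value was in OA 3 and the lowest in Cont 2, the libraries with the most and the fewest counts outside mitochondrial DNA and its copies. The mean log2 CPM of G1/S genes exceeded that of G2/M genes by 0.62, 0.55 and 0.97 in ZnPP+OA livers, 0.98, 0.64 and 0.29 in OA livers and 0.59, 2.25 and 0.56 in Cont livers. The value of 2.25 is that of Cont 2, where 7 genes had no count. Without 9 genes whose RNA spans phases or is not set by the cycle alone (Ccnd1, Mybl2, Chek1, Rrm2, Tyms, Ccna2, Cdk1, Mki67 and Pbk), the medians in OA against Cont were 1.22 for 17 G1/S genes and 1.45 for 21 G2/M genes.

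**Figure D5:**
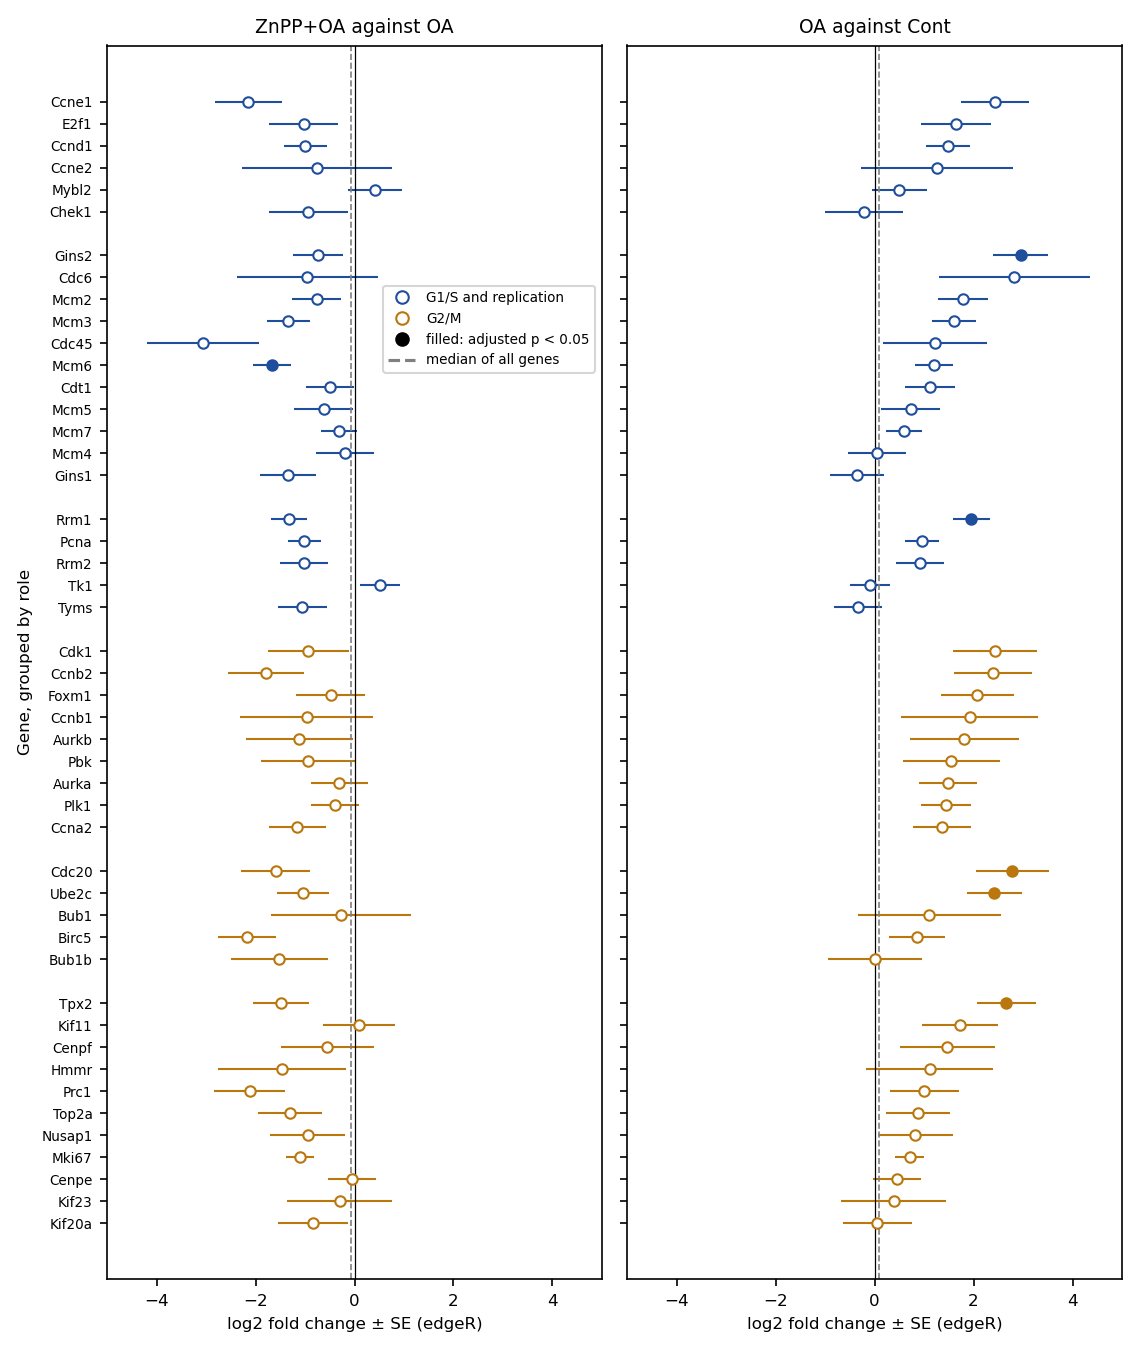
Log2 fold change ± SE (edgeR) of each of the 47 genes in ZnPP+OA against OA and in OA against Cont, in rows by role, with filled points for an adjusted p under 0.05 and a dashed line at the median of all tested genes (−0.07 and 0.09). In ZnPP+OA against OA 44 of 47 points lie below 0, and in OA against Cont 43 of 47 lie above it; the comparisons share the OA livers.

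Other genes of the cycle were taken from further lists. Of 40 other replication genes, 1 was called higher in OA against Cont and 0 lower, near the 2.4% and 2.8% of all genes, and 30 had a positive log2 fold change, with a median of 0.39. Set against OA, ZnPP+OA gave 0 calls and 33 negative values among them, with a median of −0.50. That gene was Lig1, the ligase that joins Okazaki fragments, at 5.49 ± 1.33 CPM in ZnPP+OA, 9.06 ± 0.624 CPM in OA and 3.09 ± 1.04 CPM in Cont livers (mean ± SD, n = 3), and it rose by 1.54 ± 0.38 (log2, SE; adjusted p = 0.0357 from edgeR). Uhrf1, which carries DNA methylation through replication, Rfc1 of the clamp loader and Dbf4, the activator of the CDC7 kinase, came next, with log2 fold changes of 1.03 to 1.98 and adjusted p of 0.0962 to 0.180. Of 44 other mitosis genes, 0 were called higher and 1 lower, and 36 had a positive log2 fold change in OA against Cont, with a median of 1.04, against 0.09 for all genes. For ZnPP+OA against OA 0 were called and 41 of the 44 had a negative log2 fold change, with a median of −0.84, against −0.07 for all genes. The gene called lower was Cdc25c, a phosphatase that activates CDK1, at 2.18, 1.31 and 2.76 CPM in ZnPP+OA livers, 0.414, 0.697 and 0.516 CPM in OA livers and 12.3, 6.71 and 4.15 CPM in Cont livers. It fell by 3.83 (log2, with an SE of 0.58 and an adjusted p = 0.00323), the opposite direction to most of its list, and the 3 groups did not overlap. Cdca3, Kif22 and Incenp followed, with log2 fold changes of 1.43 to 1.63 and adjusted p of 0.0977 to 0.119.

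Of 26 G1 cyclins, kinases and pocket proteins, 1 was called higher and 1 lower in OA against Cont, near the 2.4% and 2.8% of all genes. Myc, a factor that drives growth and entry into the cycle, was at 4.59, 3.99 and 2.24 CPM in ZnPP+OA livers, 14.2, 12.5 and 12.9 CPM in OA livers and 2.15, 1.77 and 5.75 CPM in Cont livers. It rose by 2.01 ± 0.48 (log2, SE; adjusted p = 0.0291 from edgeR), and had −1.87 ± 0.47 in ZnPP+OA against OA (SE, adjusted p = 0.0551). Lin37, a subunit of the DREAM complex that represses cell cycle genes in resting cells, was at 17.4, 15.0 and 20.8 CPM in ZnPP+OA livers, 13.4, 8.30 and 7.35 CPM in OA livers and 45.8, 33.5 and 14.5 CPM in Cont livers. It fell by 1.69 (log2) in OA against Cont (SE of 0.41, adjusted p = 0.0315). Rbl2, the pocket protein p130 of the same complex, and Ccnd2, for cyclin D2, had −1.28 ± 0.38 and −1.47 ± 0.45 (SE, adjusted p = 0.0746 and 0.0794).

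Of 18 inhibitors of the cycle and genes of quiescence, 3 were called higher in OA against Cont (2.4% of all genes) and 0 lower (2.8%), with a median log2 fold change of 0.06. Btg1, an antiproliferative gene, was at 17.4, 12.7 and 14.7 CPM in ZnPP+OA livers, 36.1, 65.9 and 45.7 CPM in OA livers and 11.6, 17.0 and 12.0 CPM in Cont livers. It rose by 1.86 ± 0.32 in OA against Cont (SE, adjusted p = 0.00628 from edgeR) and fell by 1.72 in ZnPP+OA against OA (SE 0.32, adjusted p = 0.0156). Cdkn1a, which encodes p21, an inhibitor of cyclin-dependent kinases, was at 12.7, 9.88 and 18.2 CPM in ZnPP+OA livers, 23.5, 33.8 and 32.2 CPM in OA livers and 14.4, 8.24 and 9.19 CPM in Cont livers, and rose by 1.49 ± 0.34 in OA against Cont (SE, adjusted p = 0.0249). Btg2, a relative of Btg1, rose by 1.55 ± 0.40 (SE, adjusted p = 0.0406). Pkmyt1, a kinase that holds CDK1 inactive, had 1.64 ± 0.58 (SE, adjusted p = 0.121). For Btg1, Cdkn1a and Btg2 every OA liver lay above every ZnPP+OA and every Cont liver.

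Markers of other cells differed between the same groups. Of 10 Kupffer cell markers, 7 were called higher in OA against Cont (2.4% of all genes) and for 10 of 10 every OA liver lay above every Cont liver (18.5% of all genes), with a summed level of 268 to 415 CPM in ZnPP+OA livers, 783 to 1111 CPM in OA livers and 164 to 375 CPM in Cont livers. Of 12 monocyte and macrophage markers, 9 were called higher, with a summed level of 201 to 293 CPM in ZnPP+OA livers, 432 to 801 CPM in OA livers and 96.0 to 183 CPM in Cont livers. In ZnPP+OA against OA, 3 of the 10 Kupffer and 6 of the 12 monocyte and macrophage markers were called lower (1.26% of all genes). Of 9 tested neutrophil markers, 1 was called higher in OA against Cont, with a summed level of 13.0 to 17.9 CPM in ZnPP+OA livers, 21.4 to 71.8 CPM in OA livers and 4.48 to 21.4 CPM in Cont livers. Lymphocyte markers went the other way: 3 of 10 B cell and 1 of 12 T and NK cell markers were called lower in OA against Cont (2.8% of all genes), with medians of −3.11 and −2.54. Hepatocyte markers had 2 of 9 lower and a median of −1.01. Of 10 tested markers each, cholangiocytes had 1 called higher, endothelium 1 called lower and stellate cells 0 in either direction, with medians of 0.47, 0.07 and 0.57. The summed level of the cholangiocyte markers was 157 to 194 CPM in ZnPP+OA livers, 189 to 300 CPM in OA livers and 61.2 to 125 CPM in Cont livers, with no overlap between OA and Cont. Spp1 is on both the cholangiocyte list and the monocyte and macrophage list, so it enters both sums. Of 5 granulocyte precursor markers, Elane, Mpo, Ctsg and Fcnb were at no more than 0.44 CPM in any library, and Prtn3 was at 0.402 to 1.31 CPM in ZnPP+OA livers, 1.28 to 2.38 CPM in OA livers and 0 to 5.06 CPM in Cont livers. Their summed level was 0.733 to 1.31 CPM in ZnPP+OA livers, 1.33 to 2.62 CPM in OA livers and 0 to 5.06 CPM in Cont livers. Of 6 tested erythroid precursor markers, 1 was called lower in OA against Cont and 0 higher. Of 4 tested plasma cell markers and 7 tested markers of pancreas and gut, 0 were called. The summed level of the pancreas and gut markers was 5.83 to 23.7 CPM in ZnPP+OA livers and 19.1 to 27.6 CPM in Cont livers. In OA livers it was 11.8, 35.0 and 42.2 CPM. The part of the macrophage and other markers in the levels of the cell cycle genes was not tested.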

How the data were processed

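Poly(A)-selected, strand-marked libraries of 9 mouse livers were sequenced in pairs of reads. Per the labels, the submitters' processing notes list HISAT2 2.2.1, cutadapt 1.9 and StringTie 2.1.6 beside edgeR and DESeq2, with the build mm10. The tool that produced the counts is not given in the sources used. The authors deposited a table of whole-number counts per gene and of FPKM values (fragments scaled to gene length and mapped fragments), and it was used as deposited. Sample columns were matched to groups by the labels, which give no batch. Library totals are in the report, and precision is limited by the few counts of the low genes.

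Counts were fitted in edgeR 4.0.16 (R 4.3.3) with TMM factors, the filterByExpr filter (min.count 10, min.total.count 15; 18895 genes left), the 3 groups in 1 quasi-likelihood fit and Benjamini-Hochberg adjustment over all tested genes at 0.05. DESeq2 1.42.0 and limma 3.58.1 on log2(FPKM + 1) or log2(FPKM + 0.1), with or without a minimum FPKM of 1 in 3 libraries, were alternatives. Others were RLE factors, library totals alone, other filters, mitochondrial genes left out, the compared libraries alone, a replicate block and each library left out. Leaving out Cont 1 and Cont 2 together, and thinning to 1 depth of 4946748 counts, were chosen after seeing the data.

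The members and lists were chosen with earlier results of these data known. Members are given liver by liver where they are among the 3 with the highest mean CPM of their role (all 5 in a role of 5), for G1/S control also where they went against their role, and where they passed the test; other lists give up to 4 genes with the smallest p in OA against Cont. The replicates are separate mice, and p-values rest on an estimate of the spread between mice that the 3 groups share. The biological coefficient of variation, a measure of that spread, was 0.669 in ZnPP+OA, 0.421 in OA and 0.870 in Cont livers. It was 0.664 in the joint fit, so a p-value does not measure the spread of the compared mice alone. Replicates differed beyond sampling noise in every group (chi-square per degree of freedom 117 to 1433). Promoters are those of RefSeq GRCm38.p6, and coordinates in the deposited table were not used. The fits were tested on simulated data.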

Additional observations from a re-analysis of the deposited data

How the results depend on the processing

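Counts below are given for all members, then G1/S and replication members, then G2/M members. In OA against Cont, 5, 2 and 3 were called higher. The counts were 26, 12 and 14 with library totals alone (15% of all genes). They were 11, 6 and 5 with no filter (3.21%), and 12, 6 and 6 with DESeq2 (4.41%). On FPKM with a pseudocount of 1 and no filter they were 33, 17 and 16 (19.7%). With a minimum FPKM of 1 in 3 libraries they were 24, 14 and 10 (68.7% of the 10696 genes kept). With that minimum and a pseudocount of 0.1 they were 23, 13 and 10 (59.8%). The minimum left out part of the members, and others passed it through the OA livers alone. Ccne1, as an example, had FPKM of 1.89 to 2.99 in OA livers and at most 0.241 elsewhere. No conclusion is drawn from the counts with this minimum. Genes with at least 10 counts in every library gave 5 G1/S calls (4.49% of all genes). Leaving out 1 library gave 0 to 5, 0 to 3 and 0 to 3, where 0.496% to 3.23% of all genes were called.

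For ZnPP+OA against OA, 1, 1 and 0 were called lower. The counts were 32, 17 and 15 with library totals alone (33.4% of all genes) and 4, 2 and 2 with no filter (2.36%). They were 3, 2 and 1 with at least 10 counts in every library (2.78%) and 6, 4 and 2 with DESeq2 (3.34%). RLE factors gave 0 members and 0 G1/S members (0.974%). On FPKM with a pseudocount of 1 and no filter they were 37, 18 and 19 (23.6%). With a minimum FPKM of 1 in 3 libraries they were 27, 17 and 10 (76.3% of the genes kept), and with 0.1 as pseudocount 26, 16 and 10 (64.2%). These cover only the members that passed the minimum, some of them through the OA livers alone. No conclusion is drawn from the counts with this minimum. The compared libraries alone gave 7, 4 and 3 (4.11% of all genes). Leaving out 1 library gave 0 to 5, 0 to 3 and 0 to 2, where 0.0291% to 2.7% of all genes were called. Between ZnPP+OA and Cont, DESeq2 called 1 member higher, a G1/S member (0.286% of all genes), where edgeR called 0. The causes were not tested. Library totals alone moved the median of all genes by 1.39 in OA against Cont and by −1.78 in ZnPP+OA against OA. FPKM with a pseudocount of 1 moved it by 1.10 and −1.20 with the FPKM minimum, and by 0.03 and −0.07 with no filter.

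Medians of the members above the median of all genes were 1.13, 1.07 and 1.36 in OA against Cont. They were 0.31, 0.25 and 0.41 on log2(FPKM + 1), and the G1/S median was 0.69 on log2(FPKM + 0.1) and 0.83 with at least 10 counts in every library. These settings cover only the members that passed their filter, so the genes are not the same. This holds for all FPKM values below that are not given as with no filter. Leaving out 1 library gave 1.07 to 1.33, 0.82 to 1.27 and 1.08 to 1.57. Set against OA, ZnPP+OA gave −0.90 for each, and −0.23 for members and −0.11 for G1/S members on log2(FPKM + 1). The G1/S value was −0.65 on log2(FPKM + 0.1) and −1.18 on log2(FPKM + 1) with no filter. Leaving out 1 library gave −1.16 to −0.76, −1.09 to −0.68 and −1.25 to −0.71. For ZnPP+OA against Cont, log2(FPKM + 1) with no filter gave 0.031, 0.034 and 0.020, against 0.45, 0.31 and 0.64, and leaving out 1 library gave 0.21 to 0.56, 0.18 to 0.39 and 0.21 to 0.91. The G1/S minus G2/M difference of medians in OA against Cont was 0.34 on log2(FPKM + 1) with no filter, against −0.29, and −0.53 to −0.04 with 1 library left out. It was −0.16 to 0.24 in ZnPP+OA against OA and −0.62 to −0.01 in ZnPP+OA against Cont with 1 library left out. Tk1 in ZnPP+OA against OA changed sign to −0.94 on log2(FPKM + 1). The median there was −1.27 over genes that passed the FPKM minimum, and relative to it Tk1 did not change sign. With no filter the median was −0.145, and Tk1 lay below it.

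Samples that share a replicate number did not deviate together (correlations of −0.101 to 0.014), so the numbers were not used to pair mice. With the replicate number as a block, 4 members were called higher in OA against Cont (1.37% of all genes). In ZnPP+OA against OA 0 were then called lower (0.503%), in G1/S members also 0. Thinning all libraries to 4946748 counts outside mitochondrial DNA left 5 higher calls in OA against Cont (2.6% of all genes). It left 1 lower call in ZnPP+OA against OA (1.36%). Low genes limit the depth: 7 members had no count in Cont 2 and 4 in ZnPP+OA 3.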
